A study of Homo sapiens with 8 samples.

Results

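The insulin-like growth factor (IGF) genes described here are 10 of the 57820 genes in an RNA-sequencing table of OVCA429, a human cell line established from an ovarian carcinoma. They were chosen by gene symbol, though with earlier results of these data known. They are the ligand IGF2, the receptors IGF1R and INSR, and the binding proteins IGFBP1 to IGFBP7. Control cells (shLuc) expressed a short hairpin RNA (shRNA) directed at luciferase, and the knockdown cells carried shGRHL2#12 against GRHL2, a transcription factor that maintains the epithelial state. Both were stable lines grown in the same medium with serum and puromycin. Only 1 shRNA sequence against GRHL2 was used, so loss of GRHL2 and any other effect of that sequence cannot be told apart.

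Each group has 4 samples by its labels, but abundant genes varied little between the samples of a group. Expression is in FPKM, that is fragments scaled to transcript length and to all mapped fragments of the sample. For genes with an FPKM of 100 or more, the coefficient of variation (CV) had a median of 2.72% over 763 genes in shLuc and 2.79% over 656 genes in shGRHL2. Each group was therefore counted as 1 library in 4 runs, every ± is the SD between those runs (n = 4), and no p-value is given because no difference has a check between separate cultures. Estimated depth ranged from 9.36 to 9.68 M fragments over the runs of shLuc and from 9.97 to 10.2 M over those of shGRHL2. GRHL2 ranged from 31.5 to 38.7 FPKM over the shLuc runs, and shGRHL2 runs had 0.13, 0.15, 1.17 and 0.10 FPKM. Its mean was 87.4-fold lower in shGRHL2, or 267-fold lower without run 3. Its CV over the shGRHL2 runs was 135% where counting fragments alone gives 35.8%, so not every gene was as steady as the abundant ones. Of 7 ovarian carcinoma epithelial markers, 6 were measurable, with the keratins KRT7, KRT8 and KRT18 at the highest levels of the list in shLuc, whereas WT1 was listed at 0. In shGRHL2, 4 of these 6 were lower by 2-fold or more, as were 7.24% of the 15019 genes compared. The summed list, mostly the 3 keratins, was at 1653 to 1706 FPKM in shGRHL2 where shLuc had 4069 to 4139. The lineage marker PAX8 went the other way, from 69.8 to 122 FPKM, within the limit.

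IGF1 and IGF2 are small secreted hormones that activate IGF1R, a receptor tyrosine kinase, and IGF2 also activates one isoform of the insulin receptor INSR. IGFBP1 to IGFBP6 are secreted proteins that hold IGFs with high affinity, extend their life outside the cell, and keep them from the receptors until a protease cuts the binding protein. IGFBP7 is a more distant relative with low affinity for IGFs. In ovarian carcinoma, IGF signaling is known as an autocrine growth pathway.

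The promoters of IGFBP3 and IGFBP4 are shown because these binding proteins lay on opposite sides of the 2-fold limit, and a short stretch of IGFBP6 because that gene came to lead the family in shGRHL2. The sequences are the bases before the RefSeq transcription start (from RefSeq on GRCh38.p14), placed by exact match on GRCh37, which is the same assembly as hg19. Capitals mark the E-box CACCTG or its reverse complement CAGGTG, a motif bound by SNAI and ZEB factors. IGFBP3 lies on the minus strand (chr7:45960872-45961121), IGFBP4 on the plus strand (chr17:38599452-38599701) and the IGFBP6 stretch on the plus strand (chr12:53491370-53491399).
IGFBP3: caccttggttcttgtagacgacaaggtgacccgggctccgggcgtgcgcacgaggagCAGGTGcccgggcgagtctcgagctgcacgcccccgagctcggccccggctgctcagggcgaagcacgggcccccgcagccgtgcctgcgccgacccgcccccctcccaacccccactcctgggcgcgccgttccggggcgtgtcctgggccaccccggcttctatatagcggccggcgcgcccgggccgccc
IGFBP4: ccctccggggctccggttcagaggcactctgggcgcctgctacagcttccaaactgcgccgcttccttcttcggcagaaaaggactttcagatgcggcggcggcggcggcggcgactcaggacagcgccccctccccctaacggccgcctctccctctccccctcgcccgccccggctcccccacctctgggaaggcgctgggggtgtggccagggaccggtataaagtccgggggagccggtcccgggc
IGFBP6: cccaccccccttCACCTGgctcttaaaggg

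Of the 10 genes, 7 had an entry in the promoter table, in 9 entries. Each entry was searched on both strands over 300 bases, from 250 before to 50 after the start. The E-box CACCTG was in 3 of the 9 entries, and in 20.6% of all 35116 promoters of that length. It began 69 bases before the start of IGFBP6, 193 bases before that of IGFBP3 and 208 bases before one start of IGFBP2. The GRHL motif AACCGGTT was in 0 of the 9 entries and in 0.134% of all promoters, and its looser form AACNNGTT, which contains it, was in 0 of 9 and in 3.52%. No match says only that these letters are not in these windows. The printed IGFBP3 bases lie within the gene bounds of a later Gencode annotation, where another transcript starts further upstream, and the IGFBP6 stretch lies in the first exon of another IGFBP6 transcript there, ahead of its coding part.

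The 4 abundant binding protein transcripts were higher in every shGRHL2 run than in any shLuc run, and their order changed. IGFBP6, IGFBP7 and IGFBP4 were 3.33-fold, 2.70-fold and 2.47-fold higher, IGFBP3 was 1.28-fold higher and so within the limit, and the ligand IGF2 went from near 0 to a mean of 4.65 FPKM. The receptors IGF1R and INSR stayed within 2-fold. Their runs overlapped, which rests on 1 shLuc run for IGF1R and on 1 shGRHL2 run for INSR. Of the 10 genes, 7 had a mean of 1 FPKM or more in at least 1 library and could be compared. By a difference of 1 or more in mean log2(FPKM + 1), which is 2-fold on that scale, 4 were higher (IGF2, IGFBP4, IGFBP6, IGFBP7), 0 were lower and 3 lay within the limit. Over all 15019 genes compared, 4.97% were higher by that rule and 7.24% lower. The runs did not overlap and were higher in shGRHL2 for 5 of the 7 genes (the 4 above and IGFBP3), where 18.5% of all genes compared were so placed and 33.2% were placed the other way.

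IGF2 passed the expression filter only through its shGRHL2 level. Among the 6 genes at 1 FPKM or more in both libraries, 3 were higher, 0 were lower, and 4 had runs that did not overlap. The median difference of these 6 genes was 0.81 in log2(FPKM + 1), beside −0.10 over all genes compared. The latter also covers genes that passed in 1 library only. No share or median was computed over all genes at that level in both libraries. In bulk RNA, a change in the share of cells that express a gene and a change in RNA per cell cannot be told apart.

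**Figure D1:**
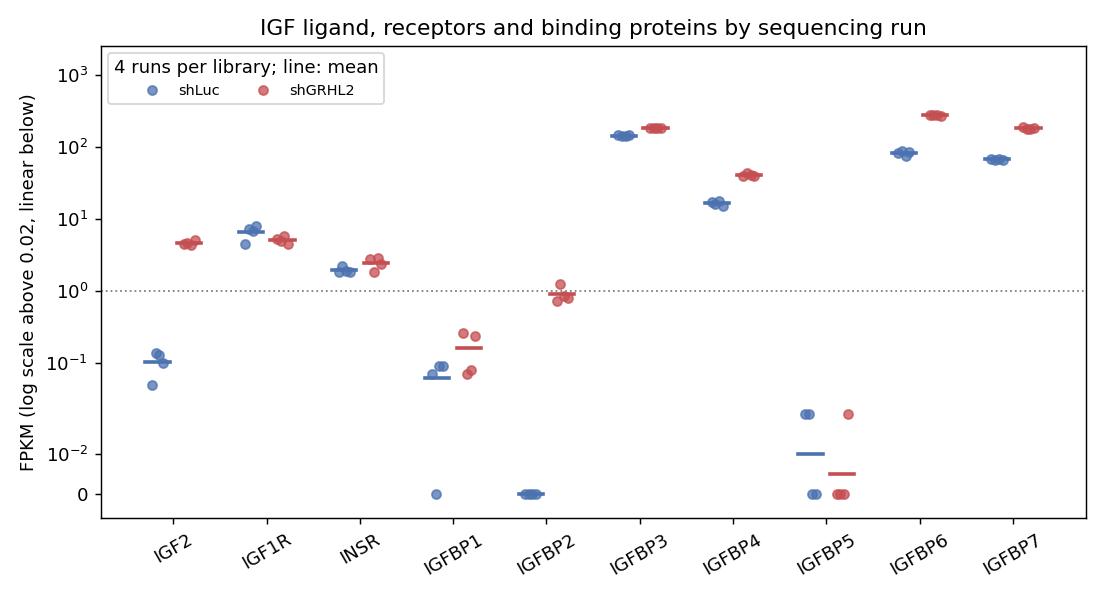
FPKM of each of the 10 genes in the 4 shLuc runs (blue) and the 4 shGRHL2 runs (red), with a line at each mean, on an axis that is logarithmic above 0.02 FPKM and linear below. The dotted line marks the filter at 1 FPKM. The red points of IGF2, IGFBP3, IGFBP4, IGFBP6 and IGFBP7 lie above all blue points of the same gene, and those of IGF1R and INSR overlap them.

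IGF2 (ENSG00000167244.13, GRCh37 chromosome 11, 2150342 to 2179621, minus strand) encodes the ligand that is imprinted in most human tissues. Its FPKM was 0.05, 0.14, 0.13 and 0.10 over the shLuc runs, and 4.52, 4.64, 4.29 and 5.13 over the shGRHL2 runs. Every shGRHL2 run lay far above every shLuc run, by 30.6-fold in the closest pair and 103-fold in the most distant. The ratio of means was 44.2, with a 95% interval from counting error alone of 26.3 to 74.3, since the shLuc library held only about 14.6 IGF2 fragments against 686 in shGRHL2. The difference in log2(FPKM + 1) was 2.35. IGF2 shares 25.9 kb with INS-IGF2, a readthrough transcript, and 8.17 kb with the antisense gene IGF2-AS. INS-IGF2 was listed at 0 in all 8 samples. IGF2-AS was at 0 throughout shLuc and at 0.22 to 0.50 FPKM over the shGRHL2 runs. Whether the quantification used strand is not given in the sources used here, so reads of IGF2 and IGF2-AS cannot be fully told apart. H19, the non-coding neighbor expressed from the other parental allele, was listed at 0 in every sample.

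The other ligands were absent or nearly so. IGF1 was listed at 0 in shLuc and had a mean of 0.0075 FPKM in shGRHL2, under 1 fragment per library, and INS was listed at 0 in every sample.

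IGF1R (ENSG00000140443.9, chromosome 15, 99191768 to 99507759, plus strand) encodes the main signaling receptor of both IGFs. It was at 4.50, 7.20, 6.74 and 7.94 FPKM in shLuc and at 5.21, 4.91, 5.85 and 4.50 FPKM in shGRHL2. The lowest shLuc run equaled the lowest shGRHL2 run, and the libraries overlapped. The means were 6.6 ± 1.48 and 5.12 ± 0.568 FPKM, which is 1.29-fold lower (difference −0.29). The overlap rests on shLuc run 1, since the other shLuc runs lay above every shGRHL2 run, and without it the difference was −0.44. IGF1R has 17 transcripts in the table, and its shLuc runs varied by a CV of 22.5% where counting alone gives 4.73%.

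INSR (ENSG00000171105.9, chromosome 19, 7112266 to 7294425, minus strand) encodes the insulin receptor. It was at 1.84, 2.24, 1.87 and 1.84 FPKM in shLuc and at 2.74, 1.83, 2.85 and 2.35 FPKM in shGRHL2. Run 2 was the highest of shLuc and the lowest of shGRHL2, so the libraries overlapped although the mean was 1.25-fold higher in shGRHL2 (1.95 ± 0.196 and 2.44 ± 0.461 FPKM, difference 0.22). The overlap rests on shGRHL2 run 2, since the other shGRHL2 runs lay above every shLuc run, and without it the difference was 0.31. The ratio of IGF1R to INSR had a mean of 3.39 ± 0.780 in shLuc and 2.14 ± 0.370 in shGRHL2, again with overlap. For this ratio the overlap rests on shLuc run 1, at 2.45, and shGRHL2 run 2, at 2.68. IGF2R, the receptor that carries IGF2 to the lysosome, was more abundant than either of them, at 20.4 ± 2.00 FPKM in shLuc and 19.6 ± 1.21 in shGRHL2, with overlapping runs.

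IGFBP6 (ENSG00000167779.3, chromosome 12, 53491220 to 53496129, plus strand) is the binding protein that prefers IGF2 to IGF1. It was at 82.5, 86.8, 75.2 and 84.8 FPKM in shLuc and at 276.6, 275.4, 279.7 and 266.5 FPKM in shGRHL2. The libraries were clearly apart, and IGFBP6 moved from the second to the first of the 10 genes by level. The means were 82.3 ± 5.08 and 274.5 ± 5.66 FPKM, a ratio of 3.33 (counting interval 3.17 to 3.50) and a difference of 1.73.

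IGFBP7 (ENSG00000163453.7, chromosome 4, 57896939 to 57976551, minus strand) is a secreted protein of vessel walls and matrix. It was at 67.1, 65.5, 67.9 and 66.6 FPKM in shLuc and at 185.7, 174.2, 178.9 and 182.9 FPKM in shGRHL2. The runs of each library sat close together and far from the other library. The ratio of means was 2.70 (counting interval 2.60 to 2.82) and the difference 1.42. CD93, an endothelial receptor that binds IGFBP7, was listed at 0 in shLuc and had a mean of 0.0075 FPKM in shGRHL2. Because IGFBP7 is also known from endothelium, endothelial markers were read beside it. Of 8 listed, 7 were found in the table and 3 passed the filter, each only through its shGRHL2 level. None of these 3 could therefore have come out lower. They were TIE1 at 0.723 and 84.7 FPKM, CDH5 at 0.0375 and 10.8, and KDR at 0 and 1.27. All were past the limit, where 4.97% of all genes compared were higher. The summed level of the list was 1.23 to 1.54 FPKM in the shLuc runs and 94.3 to 99.5 in the shGRHL2 runs, where most of it was TIE1. The markers below the filter did not share one direction: ERG had means of 0 and 0.42 FPKM, VWF 0.0575 and 0.153, CLDN5 0.125 and 0.0325, and ESAM 0.488 and 0.423. Both libraries come from stable lines of OVCA429, and how these markers relate to the IGFBP7 difference was not tested.

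IGFBP4 (ENSG00000141753.5, chromosome 17, 38599702 to 38613977, plus strand) is a binding protein that the protease PAPPA cuts. It was at 16.9, 15.9, 17.8 and 15.0 FPKM in shLuc and at 39.2, 43.1, 40.2 and 39.6 FPKM in shGRHL2. No run of one library came near the other. The ratio of means was 2.47 (counting interval 2.32 to 2.64) and the difference 1.26. IGFBP4 and PAPPA were thus both higher in shGRHL2, PAPPA with means of 1.09 ± 0.113 and 6.20 ± 0.409 FPKM (ratio 5.70, difference 1.79).

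IGFBP3 (ENSG00000146674.10, chromosome 7, 45951844 to 45961473, minus strand) is the main carrier of IGFs in blood, in complex with IGFALS. It was at 143.9, 140.7, 142.3 and 143.4 FPKM in shLuc and at 181.0, 184.7, 182.1 and 182.4 FPKM in shGRHL2. These were the steadiest runs of the family, so the libraries did not overlap although the ratio was only 1.28 (counting interval 1.25 to 1.31, difference 0.35). IGFALS was near 0 in both, at 0.135 and 0.148 FPKM. Fibroblasts are another known source of IGFBPs. Among 9 markers of fibroblasts COL1A1 alone reached the filter, at 1.19 and 3.64 FPKM, and was past the limit at a difference of 1.10. Of all genes compared, 4.97% were higher by that rule. The fibroblast markers below the filter did not share one direction: PDGFRA had means of 0.025 and 0.22 FPKM, and FAP 0.328 and 0. The fibroblast collagens COL1A2 and COL3A1 reached at most 0.02 FPKM in any run and DCN was listed at 0, with the summed list at 0.97 to 3.09 FPKM in shLuc and 2.87 to 5.02 in shGRHL2. Of 5 leukocyte markers 2 passed the filter, LAPTM5 at 1.76 and 6.39 FPKM, which was past the limit, and CD68 at 0.88 and 2.74, just within it at a difference of 0.99. PTPRC had means of 0.503 and 0.495 FPKM, CD3E was listed at 0, and the list summed to 2.56 to 4.34 and 9.38 to 10.4 FPKM. How these markers, read in stable lines of OVCA429, relate to the differences of the binding proteins was not tested.

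The remaining binding proteins were low. IGFBP2 (ENSG00000115457.5, chromosome 2, 217497551 to 217529159, plus strand), which is abundant in many ovarian carcinomas, was listed at 0 in each shLuc run, while shGRHL2 runs had 0.73, 1.24, 0.86 and 0.80 FPKM. That is about 52.4 fragments in the shGRHL2 library, spread over all 4 runs, yet its mean of 0.908 ± 0.228 FPKM fell just under the filter and it is not among the genes counted. IGFBP5 (ENSG00000115461.4, chromosome 2, 217536828 to 217560272, minus strand), a matrix-bound member, lies only 7.67 kb from IGFBP2 and did not appear with it: it was at 0.02, 0.02, 0 and 0 FPKM in shLuc and at 0, 0, 0 and 0.02 in shGRHL2, about 1 fragment in each run above 0. IGFBP1 (ENSG00000146678.5, chromosome 7, 45927959 to 45933259, plus strand), the liver and decidua form that insulin represses, lies 18.6 kb from the abundant IGFBP3. It was at 0.07, 0, 0.09 and 0.09 FPKM in shLuc and at 0.26, 0.07, 0.08 and 0.24 in shGRHL2. These are about 2.91 and 8 fragments per library, too few to compare.

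The order of levels, which FPKM allows because it is per length, showed the change within the family. In shLuc it was IGFBP3, IGFBP6, IGFBP7, IGFBP4, IGF1R and INSR, each apart from the next in all runs, followed by IGF2, IGFBP1, IGFBP5 and IGFBP2, whose neighbors overlapped. In shGRHL2 it was IGFBP6, then IGFBP3 and IGFBP7 with overlapping runs, then IGFBP4, then IGF1R and IGF2 with overlapping runs, then INSR, IGFBP2, IGFBP1 and IGFBP5. The level of IGFBP3 was at or above that of 96.6% of all genes compared in shLuc and of 97.7% in shGRHL2, and the level of IGFBP6 at or above 93.6% and 98.4%. For IGF2 these shares were 1.36% and 35.7%.

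The summed level of the 7 binding proteins was 308 ± 3.34 FPKM in shLuc and 679 ± 4.81 in shGRHL2, a ratio of 2.20. Shares of this sum do not depend on how the libraries were scaled. IGFBP3 made up 46.3% ± 0.563 of it in shLuc and 26.9% ± 0.344 in shGRHL2. IGFBP6 made up 26.7% ± 1.42 and 40.4% ± 0.582, and so took the place of IGFBP3 as the largest share. IGFBP7 made up 21.7% ± 0.505 and 26.6% ± 0.747. The share of IGFBP4 was 5.32% ± 0.441 and 5.96% ± 0.265, with overlapping runs, so IGFBP4 kept close to the pace of the whole. Against IGFBP3 in the same run, IGFBP6 went from 0.578 ± 0.0374 to 1.5 ± 0.0346, IGFBP7 from 0.468 ± 0.00588 to 0.989 ± 0.0350, and IGFBP4 from 0.115 ± 0.00861 to 0.222 ± 0.00775. None of these 3 ratios overlapped between libraries.

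**Figure D2:**
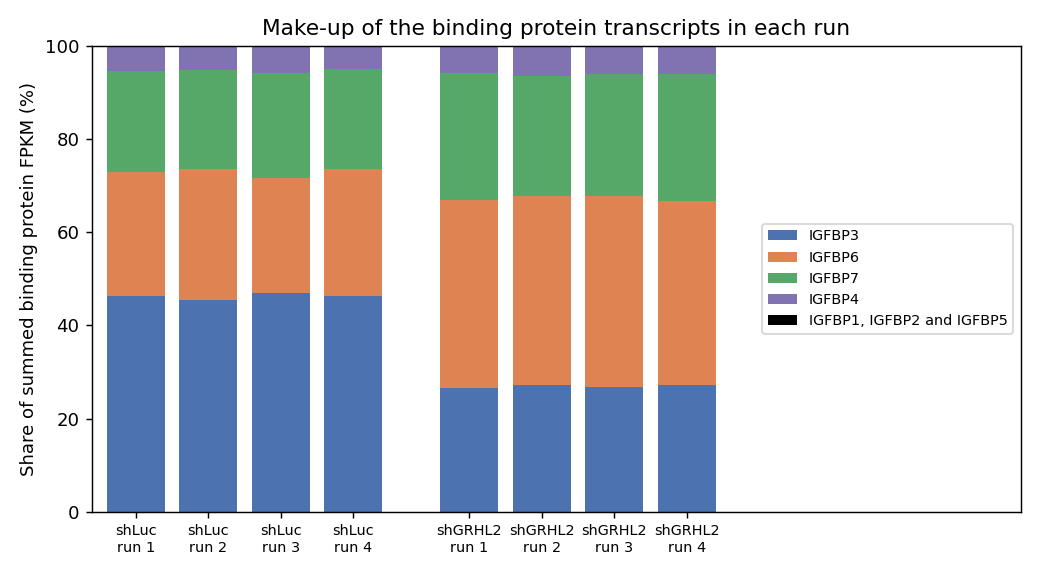
Share of each binding protein in the summed FPKM of the 7 binding proteins (vertical axis, percent), with 1 bar per run. IGFBP3 (bottom) has 45.6 to 46.9% in the shLuc runs and 26.5 to 27.2% in the shGRHL2 runs, while IGFBP6 goes from 24.8 to 28.1% to 39.6 to 41.0%. IGFBP1, IGFBP2 and IGFBP5 together are too small to see.

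**Figure D3:**
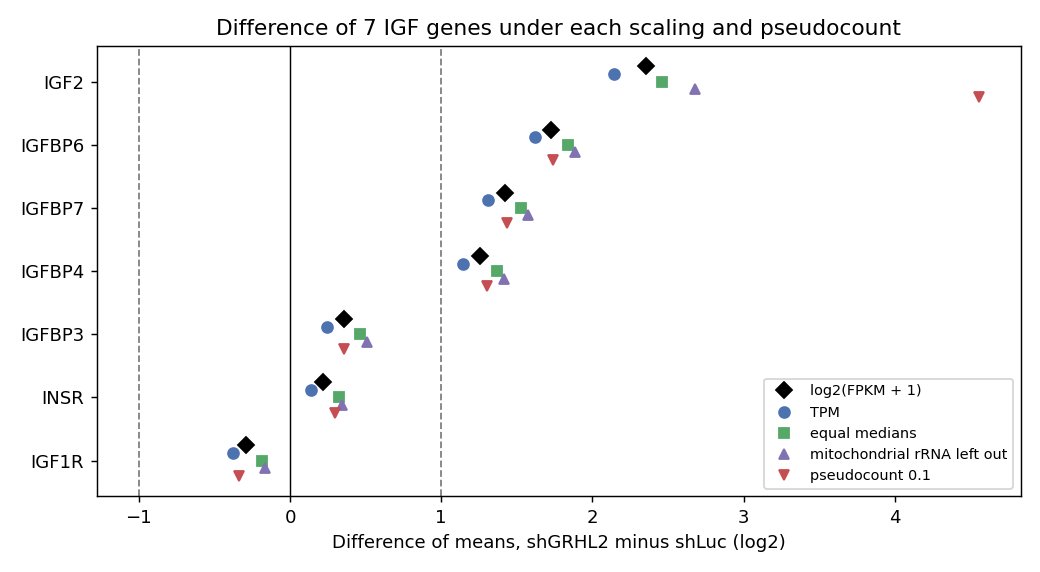
Difference of mean log2 values, shGRHL2 minus shLuc, for the 7 genes compared, by scaling and pseudocount. Dashed lines mark the 2-fold limit. IGF2, IGFBP6, IGFBP7 and IGFBP4 stay to the right of it in every setting drawn, and IGFBP3, INSR and IGF1R stay between the lines. IGF2 alone moves far, from 2.35 to 4.55 with a pseudocount of 0.1.

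Of 67 other genes of the pathway in 9 lists by role, 50 could be compared, of which 6 were higher (PAPPA, HTRA1, GRB10, SH2B2, NOV, ESM1), 4 lower (ADAM28, GRB14, FOXO3, CYR61) and 40 within the limit, with a median difference of 0.03. These counts, and those per list below, are read beside the 4.97% higher and 7.24% lower among all genes compared. The number lower among the 50 is near that background. Among the 44 at 1 FPKM or more in both libraries, 2 were higher and 3 lower, with no share over all genes at that level in both. Those that passed only through shGRHL2 were HTRA1, GRB10, NOV and ESM1, and those only through shLuc were ADAM28 and FOXO4.

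Proteases of the binding proteins moved in both directions. Of 7 listed with their inhibitors, 5 could be compared, of which 2 were higher and 1 lower. Besides PAPPA, the secreted serine protease HTRA1 was listed at 0 in every shLuc run and was at 4.81 ± 0.847 FPKM in shGRHL2. ADAM28, a metalloprotease that cuts IGFBP3, had means of 4.34 ± 0.620 and 0.630 ± 0.241 FPKM (6.89-fold lower, difference −1.72). HTRA1 passed the filter only through shGRHL2 and ADAM28 only through shLuc, so neither could have gone the other way. STC2, which inhibits PAPPA, had means of 18.8 ± 1.85 and 23.2 ± 1.74 FPKM, within the limit. The cell surface partners all lay within the limit, 4 of 5 being measurable. The integrins ITGA5 (26.3 ± 0.725 and 46.9 ± 1.10 FPKM) and ITGB1 (221 ± 5.15 and 294 ± 5.02 FPKM), which bind IGFBP1 and matrix, had higher runs in shGRHL2 without overlap, as had 18.5% of all genes compared. TMEM219, an IGFBP3 receptor, had means of 22.8 and 20.4 FPKM with overlapping runs.

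Among 9 adaptors of the receptors, 8 could be compared, 2 of them higher and 1 lower. GRB10, an imprinted adaptor that restrains IGF1R and INSR, had means of 0.828 ± 0.249 and 4.75 ± 0.749 FPKM (difference 1.65), and SH2B2, which binds activated INSR, 1.05 ± 0.434 and 3.87 ± 0.546 (difference 1.27). GRB10 passed the filter only through its shGRHL2 level, so it could not have come out lower. GRB14, a relative of GRB10 that also inhibits INSR, went the other way, with 4.02 ± 1.13 and 1.37 ± 0.906 FPKM (difference −1.12). Without shLuc run 2 its difference was just inside the limit, and run 3 of shGRHL2 stood at 2.72 FPKM. The core adaptors were within the limit, IRS1 at 7.97 and 7.09 FPKM, SHC1 at 74.0 and 105, and GRB2 at 68.7 and 50.8. Their runs did not overlap, with SHC1 higher and IRS1 and GRB2 lower. Of all genes compared, 18.5% were higher and 33.2% lower without overlap. IRS2, named after its values were seen, had means of 8.97 and 5.16 FPKM (difference −0.70), also lower without overlap.

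Downstream, 1 of 15 genes of the PI3K, AKT and FOXO arm was past the limit. FOXO3, a transcription factor that AKT holds in the cytoplasm, had means of 21.2 ± 1.19 and 7.72 ± 0.363 FPKM (2.75-fold lower, difference −1.35). The PI3K subunits PIK3R1 (regulatory) and PIK3CB (catalytic), named after their values were seen, lay just within it with runs that did not overlap. PIK3R1 had means of 6.19 ± 1.03 and 13.1 ± 2.12 FPKM (difference 0.97) and was past the limit in 5 alternatives, and PIK3CB had 11.4 ± 0.634 and 5.45 ± 0.522 FPKM (difference −0.95) and was past it in 2. AKT1 was at 41.6 and 58.2 FPKM and AKT2 at 68.5 and 52.3, in opposite directions, each without overlap. Of all genes compared, 18.5% were higher and 33.2% lower without overlap. The phosphatase INPPL1 was at 45.1 and 48.3 FPKM. All 8 mTOR genes lay within the limit, including RHEB, which activates mTOR, at 90.6 and 70.9 FPKM, the translation repressor EIF4EBP1 at 69.0 and 51.2, and the kinase RPS6KB1 at 27.3 and 28.8. The IGF2 mRNA-binding proteins, which bind and steer IGF2 transcripts, were within the limit too. IGF2BP1 was at 7.24 and 5.06 FPKM, IGF2BP2 at 41.1 and 31.8, and IGF2BP3 at 57.3 and 45.3, and 3 of 3 had lower runs in shGRHL2 without overlap, as had 33.2% of all genes compared. Their differences of −0.44, −0.36 and −0.33 became −0.32, −0.21 and −0.18 with mitochondrial rRNA left out of the scaling.

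Proteins that share the N-terminal domain of the IGFBPs but are not classed as such also differed among themselves. Of 12 listed, 7 could be compared, 3 higher (ESM1, HTRA1, NOV) and 1 lower (CYR61). The 3 higher genes passed the filter only through their shGRHL2 level, so none of them could have come out lower. ESM1, a proteoglycan known from endothelium, went from 0.348 ± 0.154 to 49.1 ± 2.74 FPKM (difference 5.22). Of the endothelial markers, TIE1, CDH5 and KDR were also higher, and ERG, VWF, CLDN5 and ESAM stayed under 1 FPKM in both libraries. How these markers relate to the ESM1 difference was not tested. Among the CCN matrix proteins, NOV was at 0.813 ± 0.254 and 4.52 ± 0.490 FPKM (difference 1.61), CYR61 at 68.4 ± 1.03 and 32.8 ± 1.61 (difference −1.04), and CTGF at 22.3 ± 1.57 and 33.9 ± 1.47 (difference 0.59). CRIM1, a membrane protein that binds bone morphogenetic proteins, was at 85.7 and 108 FPKM. CYR61 fell back within the limit, to −0.93, when the 2 libraries were set to equal medians, and to −0.89 with mitochondrial rRNA left out of the scaling.

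**Figure D4:**
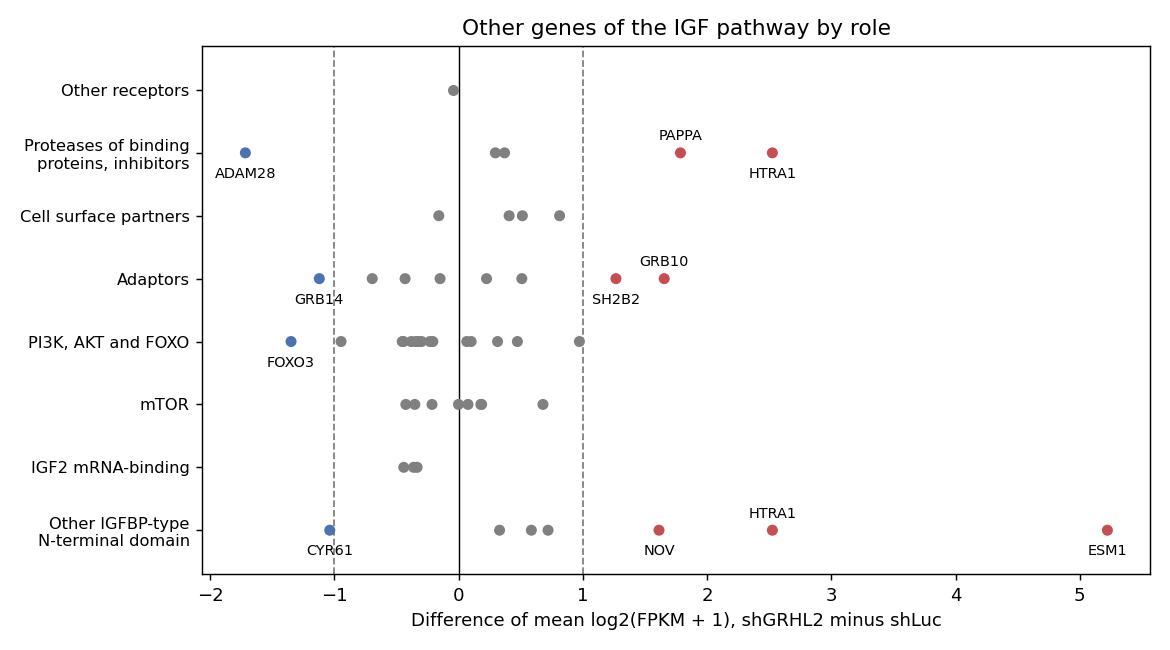
Difference of mean log2(FPKM + 1), shGRHL2 minus shLuc, for each compared gene of the other pathway lists, with 1 row per list and HTRA1 in 2 of them. Dashed lines mark the 2-fold limit, and genes past it are named, red where higher and blue where lower in shGRHL2. Most points lie between the lines, and ESM1 at 5.22 is the farthest from 0.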

How the data were processed

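The deposited table gives FPKM per gene for 8 samples. By the submitters' processing notes and the paper's methods, the authors demultiplexed paired-end reads of a stranded total RNA kit with bcl2fastq 2.17.1.14, aligned them to hg19 with STAR 2.4.2a and quantified them with RSEM 1.2.25 on Gencode annotation, which divides fragments among transcripts and overlapping genes. Because FPKM are relative to all fragments of a sample, an abundant RNA that changes shifts every other gene. The deposited length and effective length columns, another measure, served to convert FPKM to fragments.

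The genes and lists were chosen with earlier results of these data known. Named were all 10 genes, every pathway gene past the limit and the 3 most abundant compared genes per list. A group's samples count as 1 library where the CV of genes with 100 FPKM or more has a median below 3% in each group, which was met, so no test was made. Genes with a mean of 1 FPKM or more in at least 1 group were compared (15019; 27714 were at 0 in all 8) by mean log2(FPKM + 1), shGRHL2 minus shLuc, called at 1. The pseudocount of 1 understates changes of low genes, and folds are ratios of mean FPKM. Depth was estimated from the steps that single fragments leave in low values. Within 0.1 of a fragment, 87.1 to 88.7% of such values were whole. Fragment numbers and their intervals are approximate and cover counting error only. The calculation was checked on simulated data. Alternatives were a pseudocount of 0.1, no filter, a filter at 5 FPKM, rescaling to TPM (which rescales FPKM to a fixed total), equal medians, each run left out, and mitochondrial rRNA left out of the scaling, the last added after seeing the data. Gene bounds are from Gencode v44 lifted to GRCh37. Python 3.11.15, numpy 2.4.6, pandas 2.3.3 and matplotlib 3.10.9 were used.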

Additional observations from a re-analysis of the deposited data

Results flagged for a closer look

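Over 101 groups of 4 runs examined, 7 held a run that stood apart from the other 3 by Dixon's criterion, where chance gives about 1 in 20. INSR was at 2.24 FPKM in shLuc run 2, with the others at 1.84 to 1.87. IGFBP5 was at 0.02 FPKM in shGRHL2 run 4 and at 0 in the others, about 1 fragment, and its share of the binding protein sum there was 0.00297%. The ratio of IGFBP7 to IGFBP3 was 0.477 in shLuc run 3. GRHL2 was at 1.17 FPKM and GRB14 at 2.72 FPKM in shGRHL2 run 3. CTGF was at 31.7 FPKM in shGRHL2 run 2.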

How the results depend on the processing

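The calls of IGF2, IGFBP4, IGFBP6 and IGFBP7 held under every alternative that kept the gene, with differences of 2.14 to 4.55, 1.15 to 1.42, 1.62 to 1.88 and 1.31 to 1.58, and IGF1R, INSR and IGFBP3 stayed within the limit. With a filter at 5 FPKM, IGF2 and INSR dropped out, and with mitochondrial rRNA left out of the scaling IGFBP2 came in and was past the limit (5 genes higher). Over all genes, a pseudocount of 0.1 gave 1324 higher and 1663 lower, beside 746 and 1087. A filter at 5 FPKM gave 464 higher, and among pathway genes 2 higher and 2 lower, beside 6 and 4. The median difference of all genes was −0.10, and was −0.19 in TPM, 0.01 with equal medians and 0.05 without mitochondrial rRNA. The share of higher genes among all calls was 40.7%, and was 34.1%, 50.9% and 52.1% under these scalings. GRB14 was at −0.997 without shLuc run 2, PIK3R1 moved from 0.97 to 1.07 with a pseudocount of 0.1, to 1.08 with equal medians and to 1.13 without mitochondrial rRNA, and also passed 1 without shLuc run 4 or shGRHL2 run 3. PIK3CB moved from −0.95 to −1.06 with that pseudocount and to −1.02 in TPM. IGF2R, FOXO1, INPPL1, RPS6KB1 and RPTOR, all near 0, changed sign between scalings and were in part named for it. No paired analysis was possible because the comparison comes from no test, and the runs of a group are 1 library. Same-numbered runs deviated with correlations of −0.30, −0.03, 0.09 and −0.18 over 4047 genes. Depth limits IGFBP1, IGFBP5 and the shLuc level of IGF2, which rest on under 20 fragments per library.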
